A study of Mus musculus with 17 samples.

Results

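Translation initiation factor genes encode the proteins that bring the ribosome, the initiator tRNA and the messenger RNA together. They were taken here as the protein-coding mouse genes whose symbol starts with Eif followed by a digit from 1 to 6. The rule found 56 genes among 21887 protein-coding genes of the mm10 assembly on chromosomes 1 to 19, X and Y. Their spans ran from 2.15 to 215 kb with a median of 18.5 kb, against a median of 17.2 kb over all protein-coding genes. A gene was counted as near a peak when a summit, the highest point of a peak, lay within 5 kb of its span.

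The peaks came from ChIP-seq, which sequences the DNA bound by a protein, in bone marrow-derived macrophages of C57BL/6 mice at day 7 of their differentiation. No group carried a genetic change according to the labels. Interleukin 4 (IL4) was given at 10 ng/ml and interferon gamma (IFNg) at 100 ng/ml. STAT6, which the IL4 receptor activates, was mapped after 2 h of IL4 and 2 h of IFNg+IL4. IRF1, an interferon-induced factor, JUNB, an AP-1 subunit, and CEBPB, a myeloid leucine zipper factor, were each mapped without cytokine (untreated) and with IFNg or IFNg+IL4 for 4 h. MYC, a basic helix-loop-helix factor, had an untreated library and 4 treated ones, IL4 for 2 h or 4 h and IFNg+IL4 for 2 h or 4 h. Each of the 16 combinations was 1 library, and 1 input library of unprecipitated DNA completed the set. With no replicates no test was made. The intervals given are exact Clopper-Pearson 95% intervals that cover counting error only, not the spread between cultures.

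Initiation starts when eIF2 loads the initiator tRNA on the small ribosomal subunit, with eIF1, eIF1A, eIF3 and eIF5 scanning for the start codon. eIF4E binds the cap of the messenger RNA, eIF4G is the scaffold and eIF4A the helicase that unwinds the leader. Stress kinases phosphorylate eIF2, which blocks its recycling by eIF2B, and 4E-binding proteins sequester eIF4E. MYC is a textbook regulator of ribosome production and translation genes, and it binds the E-box letters CACGTG with its partner MAX.

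Promoter sequences were available for 44 of the 56 genes, from RefSeq on GRCm38.p6, as windows of 250 bases before to 50 after the annotated start. More than 1 start, and so more than 1 window, was annotated for 6 of them (13.6%, against 15.8% of all genes), and a gene was counted when any window held the letters. The E-box CACGTG, which reads the same on both strands, was found for 10 of the 44 genes (22.7%) and for 8.91% of 17492 protein-coding genes. Each gene whose sequence is printed has 1 window. In 5 of these 10 genes the strongest MYC summit after 2 h of IL4 also lay inside the window, and they are shown from 150 bases before the start to 49 after it. The E-box is in capitals and all sequences read 5′ to 3′ along the gene. Eif1b lies at chr9:120492456-120492655 on the plus strand, Eif3a at chr19:60790644-60790843 on the minus strand and Eif4g1 at chr16:20672577-20672776 on the plus strand. Eif4h lies at chr5:134639360-134639559 on the minus strand and Eif5a2 at chr3:28781127-28781326 on the plus strand.
Eif1b: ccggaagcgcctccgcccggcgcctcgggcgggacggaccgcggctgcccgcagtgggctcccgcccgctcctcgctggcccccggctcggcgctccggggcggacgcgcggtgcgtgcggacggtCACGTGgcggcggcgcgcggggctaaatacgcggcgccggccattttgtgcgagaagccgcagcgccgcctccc
Eif3a: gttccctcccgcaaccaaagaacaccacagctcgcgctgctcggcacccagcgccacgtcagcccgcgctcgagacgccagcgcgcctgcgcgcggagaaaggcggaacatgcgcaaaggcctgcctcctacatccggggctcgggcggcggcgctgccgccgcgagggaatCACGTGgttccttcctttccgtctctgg
Eif4g1: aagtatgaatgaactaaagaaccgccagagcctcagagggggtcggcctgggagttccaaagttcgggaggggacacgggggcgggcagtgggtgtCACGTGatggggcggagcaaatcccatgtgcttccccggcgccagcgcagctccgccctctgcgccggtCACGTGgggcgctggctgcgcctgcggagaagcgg
Eif4h: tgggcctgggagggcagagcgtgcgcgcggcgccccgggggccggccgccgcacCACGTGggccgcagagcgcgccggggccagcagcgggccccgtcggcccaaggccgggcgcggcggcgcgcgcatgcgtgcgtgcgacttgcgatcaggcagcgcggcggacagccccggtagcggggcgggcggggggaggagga
Eif5a2: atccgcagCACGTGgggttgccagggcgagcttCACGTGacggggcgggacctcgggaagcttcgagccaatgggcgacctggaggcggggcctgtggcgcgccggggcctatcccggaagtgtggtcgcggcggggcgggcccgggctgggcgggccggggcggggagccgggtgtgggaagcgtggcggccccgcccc
The MYC summit was 14.5 bp from the centre of the nearest E-box at Eif3a, 17.5 bp at Eif1b, 32.5 bp at Eif4g1, 37.5 bp at Eif5a2 and 75.5 bp at Eif4h. These genes were picked for a summit inside the window, which bounds the distance. Over all 10 genes with an E-box the distance ran from 14.5 to 1118.5 bp with a median of 99.5 bp. The farthest were Eif4a1 at 1118.5 bp and Eif4e at 822.5 bp. Only the strongest MYC peak of each gene was measured. Both Eif4a1 and Eif4e also had a weaker MYC peak after 2 h of IL4, in a stretch of overlapping peaks that covers an E-box. These stretches were chr11:69672168-69672880 and chr3:138526847-138527270. At Eif4h the summit lay upstream of the stretch shown. Eif4g1 and Eif5a2 each held 2 E-boxes. At Eif4g1 these began 54 bases before and 15 bases after the start, and the summit fell between them.

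Eif3b, which had the strongest MYC peak of all 56 genes, held no CACGTG in its window, and is shown for contrast at chr5:140419155-140419354 on the plus strand. Its summit lay 34 bases before the start.
Eif3b: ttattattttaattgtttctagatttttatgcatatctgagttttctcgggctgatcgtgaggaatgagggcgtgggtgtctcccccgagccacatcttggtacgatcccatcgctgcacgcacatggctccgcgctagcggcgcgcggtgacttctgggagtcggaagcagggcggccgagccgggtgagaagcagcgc
Eif2ak2 encodes PKR, the kinase that double-stranded RNA activates, and is a known interferon-induced gene. Its start region at chr17:78882523-78882722 on the minus strand is shown because an IRF1 summit lay 3 bases from the start and a pair of GAAA repeats with 2 bases between them, in capitals, began 18 bases after it.
Eif2ak2: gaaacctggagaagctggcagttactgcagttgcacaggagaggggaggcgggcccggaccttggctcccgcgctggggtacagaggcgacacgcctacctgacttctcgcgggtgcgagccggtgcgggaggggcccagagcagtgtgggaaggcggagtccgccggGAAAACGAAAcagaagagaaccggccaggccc
This pair, GAAA, any 2 bases and GAAA, searched on both strands, was found for 4 of the 44 genes (9.09%), Eif2ak2, Eif2s1, Eif2s3x and Eif3a, and for 3.94% of all genes. For the motifs of the other factors the shares were 6.82% against 7.37% for the STAT6 letters TTC and GAA with any 4 bases between them, 11.4% against 8.12% for the AP-1 letters TGANTCA and 9.09% against 11.7% for the CEBP letters TTGCNNAA. A match is a description of letters and not a shown binding site.

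As a check of the cell label, a STAT6 peak after IL4 lay near 10 of 10 macrophage genes, among them Csf1r, Adgre1 and Spi1, and near 5 of 12 marker genes of other cells that the culture could hold (41.7%), where 37.6% of all genes were near one. Peaks show binding and not expression, so this check is weak. Depth differed between libraries. It was recovered relative to the input from the deposited columns for MYC and cytokine-treated IRF1, and was 0.554 for untreated MYC, 0.572 and 0.875 for MYC after 2 h and 4 h of IL4, and 0.329 and 0.368 for MYC after 2 h and 4 h of IFNg+IL4. For IRF1 it was 0.447 with IFNg and 0.929 with IFNg+IL4. The MYC lists held 495 peaks in untreated cells, 13211 and 9645 with IL4 at 2 h and 4 h, and 3034 and 3402 with IFNg+IL4. Thinned to the depth of the IFNg+IL4 library of the same time, the IL4 lists still held 10553 peaks at 2 h and 6218 at 4 h. The untreated list was as deep as that of 2 h of IL4, with a depth ratio of 0.969.

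Pooled over all lists of a factor, MYC was near more of the 56 genes than any of the other 4 factors. MYC also had the most lists. STAT6 came next with 38 genes (67.9%, against 41.0% of all genes). After 2 h of IFNg+IL4 STAT6 was near more of the 56 genes than MYC, 27 against 23. In untreated cells 13 genes (23.2%, interval 13.0 to 36.4%) were near a MYC peak, where 2.94% of all protein-coding genes were. At −log10 q values of 5 or more the count was 5 genes (8.93%, against 2.23%). After IL4 the counts were 47 of 56 genes at 2 h (83.9%, against 41.7% of all genes) and 46 at 4 h (82.1%, against 35.3%). With IFNg+IL4 they were 23 genes at 2 h (41.1%, against 14.5%) and 29 at 4 h (51.8%, against 15.7%). In each of the 5 MYC lists the interval on the share of the 56 genes lay above the share of all genes. In all, 48 of the 56 genes (85.7%) were near a peak in at least 1 MYC list, against 43.5% of all genes.

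At this window of 5 kb from the span, the shares for the other factors were nearer to those of all genes. For STAT6 33 genes were near a peak with IL4 (58.9%, against 37.6% of all genes) and 27 with IFNg+IL4 (48.2%, against 33.8%). For CEBPB there were 11 genes in untreated cells (19.6%, against 13.6%), 28 with IFNg (50.0%, against 34.9%) and 8 with IFNg+IL4 (14.3%, against 14.8%). For JUNB there were 11 genes in untreated cells (19.6%, against 16.7%), 11 with IFNg (19.6%, against 13.8%) and 7 with IFNg+IL4 (12.5%, against 11%). For IRF1 there were 2 genes in untreated cells (3.57%, against 1.54%), 6 with IFNg (10.7%, against 12%) and 12 with IFNg+IL4 (21.4%, against 20.4%). The share of all genes lay inside the interval for every JUNB and IRF1 list and for untreated CEBPB and CEBPB with IFNg+IL4. It lay below the interval for both STAT6 lists and for CEBPB with IFNg.

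**Figure D1:**
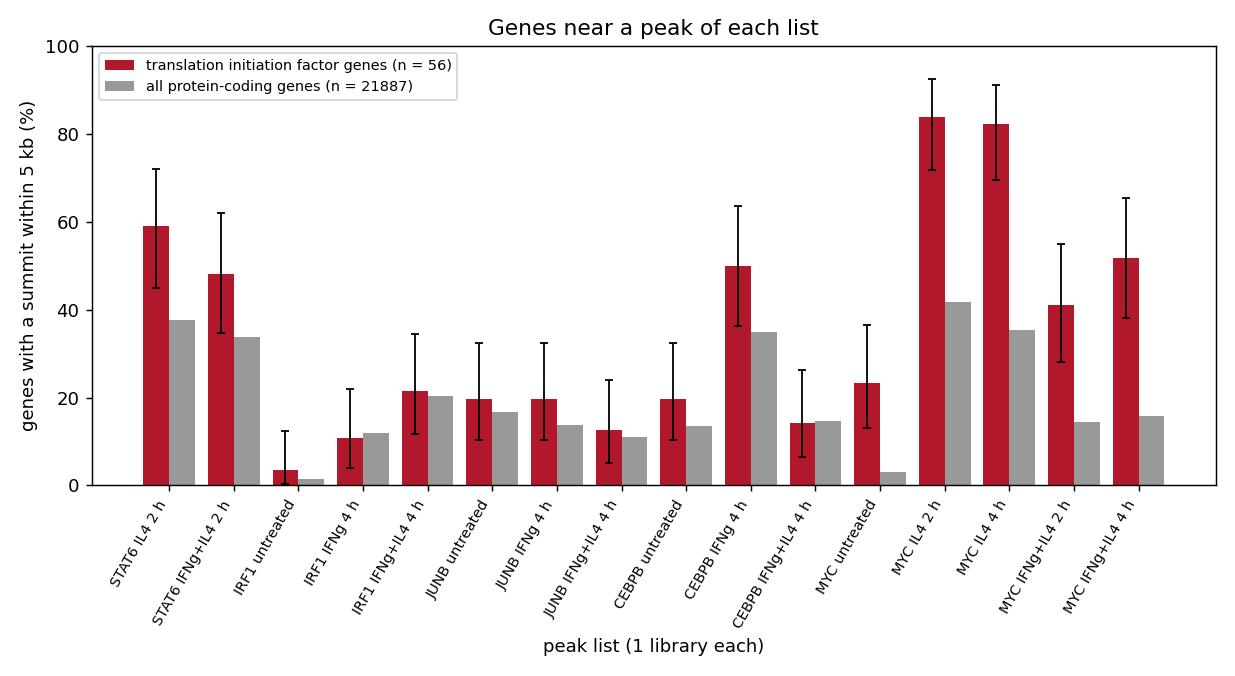
Share of genes with a summit within 5 kb in each of the 16 peak lists, in percent. Red bars are the 56 translation initiation factor genes with exact 95% intervals for counting error and grey bars are all 21887 protein-coding genes. The red bars reach 83.9% and 82.1% for MYC after 2 h and 4 h of IL4, where the grey bars stand at 41.7% and 35.3%.

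The 13 genes near a MYC peak in untreated cells were the same 13 that were near one in all 5 MYC lists. These were Eif1a, Eif2s1, Eif2s3x, Eif3a, Eif3b, Eif3d, Eif3e, Eif4a1, Eif4a2, Eif4b, Eif4g1, Eif5 and Eif5a. The 5 with an untreated peak at a −log10 q of at least 5 were Eif3a, Eif3b, Eif3e, Eif4a1 and Eif4g1. The 13 genes cover start codon selection, eIF2, eIF3, the helicase and its cofactor, the main eIF4G scaffold, eIF5 and eIF5A. Of all protein-coding genes, 2.80% were near a peak in all 5 lists. A further 7 genes were near one in each of the 4 cytokine-treated lists but not in the untreated one. They were Eif1ad, Eif3j1, Eif4ebp1, Eif4g2, Eif4g3, Eif4h and Eif6. Together with the 13, 20 of the 56 genes (35.7%) were near a MYC peak in all 4 treated lists, against 10.8% of all genes. Over both times together, no gene had a MYC peak with IFNg+IL4 and none with IL4. At matched times, Eif2ak2 had one with IFNg+IL4 alone at 2 h and Eif2b4 at 4 h.

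By role, the eIF1 and eIF1A group of 5 genes had 1 gene near a MYC peak in untreated cells, 5 with IL4 at either time, and 2 and 3 after 2 h and 4 h of IFNg+IL4. In this order of lists, 2.94, 41.7, 35.3, 14.5 and 15.7% of all genes were near a MYC peak. Of the 6 genes of eIF2 and tRNA delivery, the counts in the same order were 2, 4, 4, 3 and 3. The 2 of these 6 with no MYC peak were Eif2d, which encodes a factor that can deliver tRNA without eIF2, and Eif2s3y, the Y-linked copy of the gamma subunit. The 5 genes of eIF2B, the exchange factor that recycles eIF2, gave 0, 4, 3, 0 and 3. The 4 kinase genes gave 0, 2, 3, 1 and 0. Among them Eif2ak3, which encodes the endoplasmic reticulum stress kinase PERK, had no MYC peak in any list.

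The 14 genes of eIF3, the largest initiation complex, gave 4 genes in untreated cells, 13 and 12 with IL4, and 5 and 6 with IFNg+IL4. Eif3j2, a copy of the Eif3j1 gene, was the 1 without a MYC peak. The 6 genes of the eIF4A helicases and their cofactors gave 3, 5, 5, 5 and 4, and the 3 eIF4G scaffold genes gave 1, 3, 3, 3 and 3. In both groups at most 1 gene with an IL4 peak at the same time lacked one with IFNg+IL4. Of all genes with an IL4 peak, 65.4% at 2 h and 56.5% at 4 h lacked one. Eif4a1, Eif4a2, Eif4b and Eif4g1 of these groups are among the 12 genes with the strongest MYC peaks after 2 h of IL4. Strong peaks were overlapped more often over the whole list too, as given below. The 4 cap-binding genes gave 0, 3, 3, 0 and 1, and the 4 genes of the 4E-binding proteins and the transporter Eif4enif1 gave 0, 3, 3, 1 and 2. Eif4e itself, the cap-binding subunit, had a MYC peak with IL4 at both times and with IFNg+IL4 at 4 h. The 5 genes of the eIF5 family and Eif6 gave 2, 5, 5, 3 and 4.

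**Figure D2:**
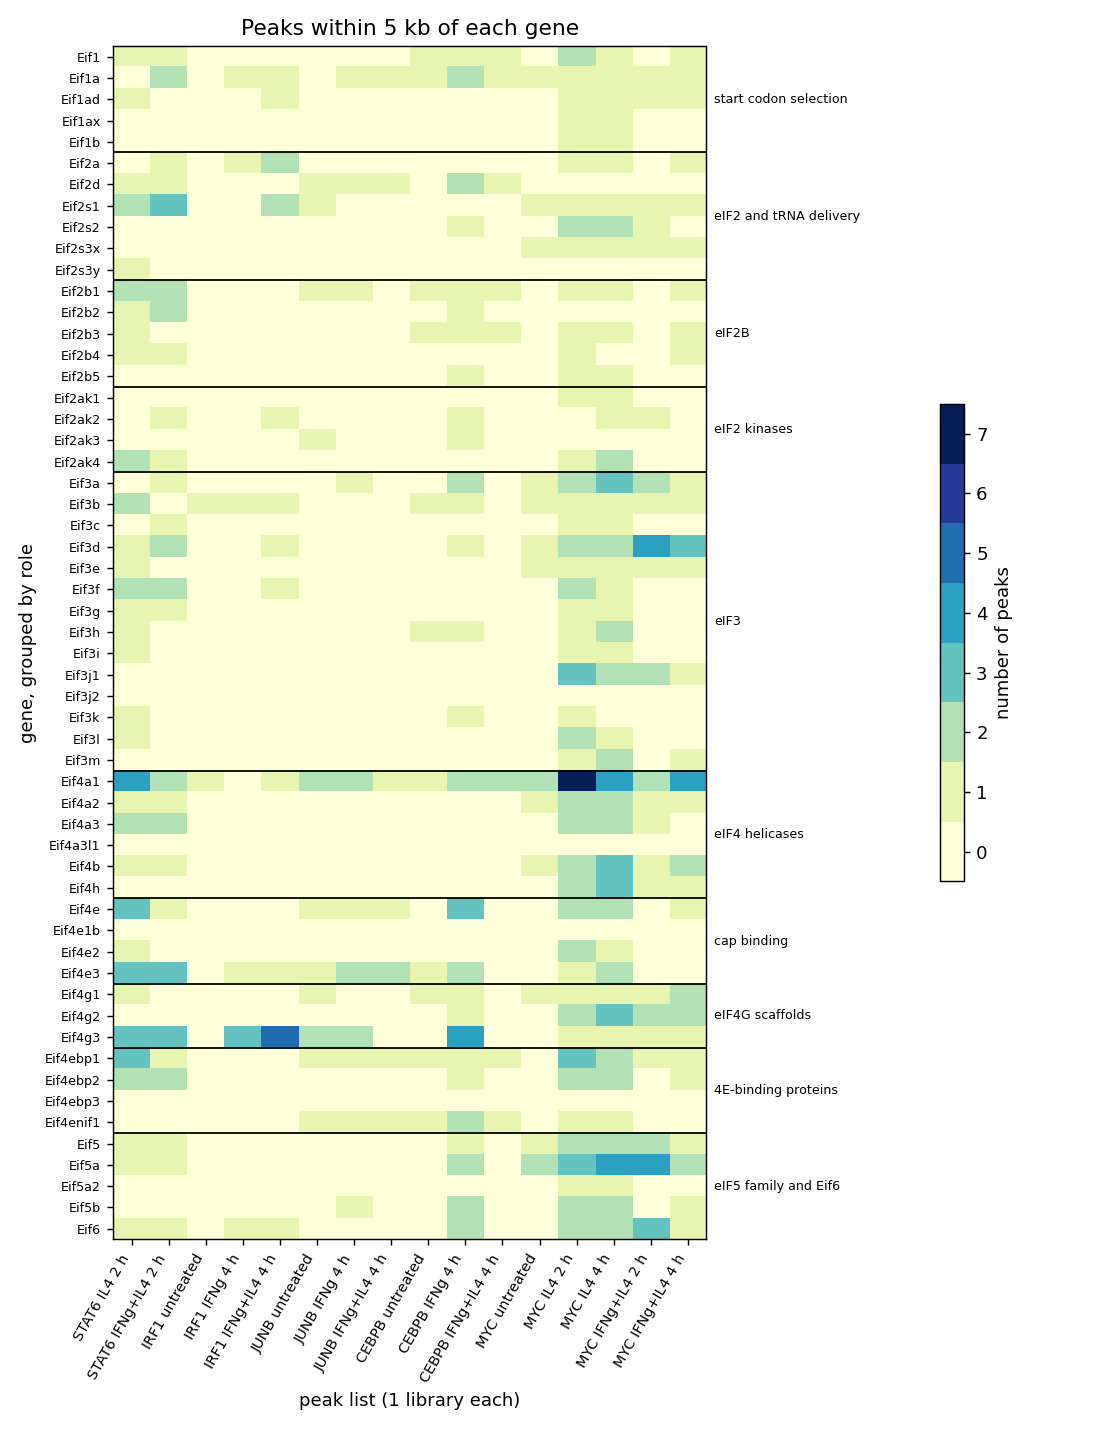
Number of peaks with a summit within 5 kb of each of the 56 genes (rows, grouped by role) in each of the 16 peak lists (columns, 1 library each). The MYC columns after IL4 are filled for 47 and 46 genes, and the rows of Eif3j2, Eif4a3l1, Eif4e1b and Eif4ebp3 are empty throughout.

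Peak strength was read from the pileup, the number of fragments stacked at the summit, which the deposited fold and −log10 p of a MYC or treated IRF1 peak fix. Eif3b, a core subunit of eIF3, had the peak with the highest −log10 p among the 56 genes after 2 h of IL4 (151, rank 14 of 13211). At this site the pileup was 28 fragments in untreated cells, 108 and 105 with IL4 at 2 h and 4 h, and 29 and 36 with IFNg+IL4 at these times. Divided by the depth of each library relative to the input, these were 50.5 (exact Poisson 95% interval 33.6 to 73.0), 189 (155 to 228), 120.0 (98.1 to 145), 88.1 (59.0 to 127) and 97.8 (68.5 to 135). Eif3b was named for its value after 2 h of IL4, so that this value was the highest is a description, and counting error does not cover the spread between libraries.

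Eif4a1, which encodes the main helicase of initiation, came next with a −log10 p of 115 (rank 38). Its pileup was 27 fragments in untreated cells, 79 and 80 with IL4 at 2 h and 4 h, and 30 and 38 with IFNg+IL4 at 2 h and 4 h. Scaled by depth, these were 48.7 (32.1 to 70.9), 138 (109 to 172), 91.4 (72.5 to 114), 91.2 (61.5 to 130) and 103 (73.1 to 142). The untreated value was the lowest at both genes. The peak lay inside the gene, 932 bp from its start, and within 5 kb of Senp3.

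The other 10 genes of the 12 with the strongest MYC peaks after 2 h of IL4 were Eif1ad, Eif1a, Eif3e, Eif3a, Eif2s3x, Eif5a, Eif4g1, Eif4a2, Eif4b and Eif2s1. Their −log10 p ran from 85.0 at Eif1ad down to 42.0 at Eif2s1. At the eIF3 scaffold gene Eif3a the pileup was 13 fragments in untreated cells, 54 and 49 with IL4, and 21 and 24 with IFNg+IL4. At Eif4g1, the scaffold gene with 2 E-boxes, it was 12, 36, 38, 14 and 13 in the same order. At Eif2s1, which encodes the subunit that the stress kinases phosphorylate, it was 11, 41, 32, 16 and 15. Eif1ad had 59 and 57 fragments with IL4 and 21 and 21 with IFNg+IL4, and no peak in untreated cells. Every one of the 12 sites was highest per depth after 2 h of IL4, the list by whose values they had been named.

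Over all sites the scaled pileups can be set beside the background only where both libraries had a peak. Against 2 h of IL4, the untreated pileup per depth had a median ratio of 0.27 over 12 of the 56 genes (range 0.24 to 0.38), and of 0.30 over 471 peaks of the whole list. The thirteenth untreated gene, Eif3d, had its untreated peak at another site, past its end and near Foxred2. The median ratio was 0.69 for 4 h of IL4 over 44 genes, against 0.70 over 8333 peaks. It was 0.67 for 2 h of IFNg+IL4 over 21 genes, against 0.75 over 2746 peaks, and 0.68 for 4 h of IFNg+IL4 over 26 genes, against 0.72 over 3039 peaks. A ratio below 1 was found at 12 of 12, 42 of 44, 21 of 21 and 23 of 26 genes, and at 98.9, 90.5, 81.7 and 86.0% of the peaks. The gene ratios rest on the strongest peak of each gene after 2 h of IL4. Those of the list rest on all its overlapped peaks, weak ones included, so they are not like for like. Enrichment per library also enters these ratios, and its part was not tested.

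**Figure D3:**
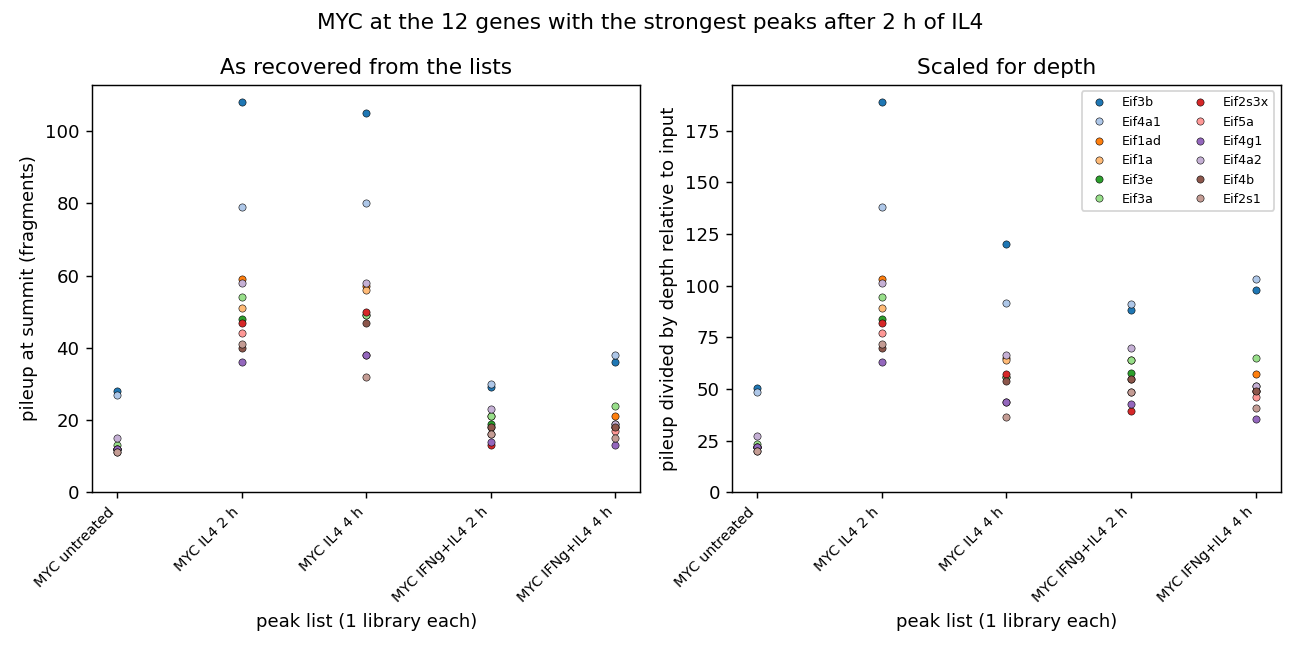
MYC pileup at the 12 genes with the strongest peaks after 2 h of IL4, in fragments (left) and divided by library depth relative to the input (right), in the 5 MYC libraries. Each point is 1 gene in 1 library. Eif3b reaches 108 and 105 fragments with IL4 and 29 and 36 with IFNg+IL4, and Eif1ad has no point in untreated cells.

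The comparison of treatments asks how one cytokine alters the binding that another induces. Of the 47 genes with a MYC peak after 2 h of IL4, 34 (72.3%) had none in untreated cells, where 92.9% of all genes with such a peak had none. From 2 h to 4 h of IL4 only Eif2b4 and Eif3k of the 47 had no peak at the later time (4.26%, against 19.4% of all genes), and Eif2ak2 had one at 4 h alone. The 4 h library was 1.53 times as deep as the 2 h one. With both thinned to the depth of 2 h of IFNg+IL4, 46 genes were near a peak at 2 h (82.1%, against 36.8%). At 4 h 38 genes then were (67.9%, against 24.2%). With IFNg added at 2 h, 25 of the 47 genes (53.2%, interval 38.1 to 67.9%) had no MYC peak, against 65.4% of all genes. At 4 h 18 of 46 (39.1%, interval 25.1 to 54.6%) had none, against 56.5%. These comparisons share lists, so they are not independent.

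Among the 25 genes without a MYC peak after 2 h of IFNg+IL4 were 8 subunit genes of eIF3 (Eif3c, Eif3f, Eif3g, Eif3h, Eif3i, Eif3k, Eif3l and Eif3m), 4 of eIF2B, 3 of the cap-binding group and Eif1. When the list of 2 h of IL4 was thinned to the depth of 2 h of IFNg+IL4, 46 genes had a peak and 24 of them none with IFNg+IL4 (52.2%, against 61.3% of all genes). Cutting both lists to the same 3034 peaks, which removes any difference in list length by construction, left 27 genes near a peak with IL4, and 21 of these also with IFNg+IL4. The 6 left were Eif1, Eif2a, Eif2ak1, Eif2b1, Eif3g and Eif4e (22.2%, against 27.8% of all genes). At 4 h the same cut to 3402 peaks left 5 of 30 genes without a peak with IFNg+IL4 (16.7%, against 27.8%). These were Eif2ak1, Eif2s2, Eif3g, Eif3i and Eif4a3. In the other direction, 2 genes at 2 h and 4 genes at 4 h had a peak in the cut IFNg+IL4 list alone. For that direction the share of all genes was not computed.

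Peak by peak, all 15 MYC peaks near the 56 genes in untreated cells overlapped a peak of 2 h of IL4, as did all 495 of the list. Of the 76 peaks after 2 h of IL4, 62 overlapped a peak at 4 h (81.6%, interval 71.0 to 89.5%), against 63.1% of the whole list. The library of 4 h was the deeper of the pair. With IFNg+IL4, 28 of the 76 were overlapped at 2 h (36.8%, interval 26.1 to 48.7%), against 20.8%, and 35 of 75 at 4 h (46.7%, interval 35.1 to 58.6%), against 30.8%. The peaks near these genes were stronger than most of their list, with 36 of the 76 in the strongest of 4 classes of equal size by −log10 p. Within that class 25 of 36 (69.4%) were overlapped with IFNg+IL4 at 2 h, against 62.0% of the whole class. In class 2 the count was 3 of 19 (15.8%, against 13.95%), and in classes 3 and 4 it was 0 of 13 and 0 of 8 (against 5.19% and 1.82%). Set against the matching class, the shares were closer together than over the whole list.

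**Figure D4:**
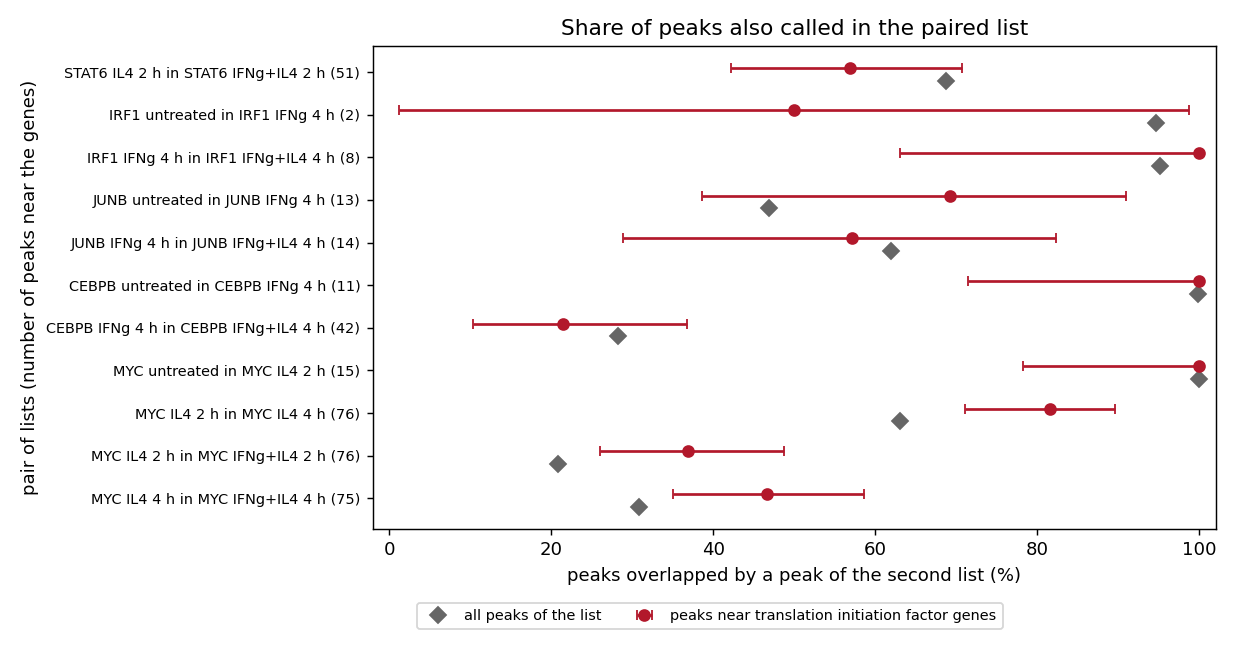
Share of peaks near the 56 genes (red, with exact 95% intervals for counting error) and of all peaks (grey diamonds) in one list that overlap a peak of the paired list by at least 1 bp, in percent, for 11 pairs. For MYC after 2 h of IL4 the red points stand at 81.6% for 4 h of IL4 and at 36.8% for 2 h of IFNg+IL4.

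MYC peaks lay at the start of these genes. Of the 63 peaks after 2 h of IL4 at genes with an annotated start in the table, 56 were within 1 kb of it, at a median distance of 179 bp. A peak within 1 kb of the start was found at 38 of 44 genes (86.4%), against 33.1% of 17492 protein-coding genes. STAT6 peaks after IL4 were within 1 kb in 26 of 40 cases, and were found there at 23 of 44 genes (52.3%, against 18.1% of all genes). As a ratio to the share of all genes, the contrast at the start after 2 h of IL4 was about as large for STAT6 as for MYC. After 2 h of IFNg+IL4 the shares were 40.9% for MYC (against 10.7%) and 40.9% for STAT6 (against 15.3%). The other MYC shares were 22.7% in untreated cells (against 2.07%), 84.1% after 4 h of IL4 (against 27.7%) and 52.3% after 4 h of IFNg+IL4 (against 11.4%). CEBPB peaks with IFNg were within 1 kb in 10 of 32 cases, at 9 genes (20.5%, against 10.4%). IRF1 peaks with IFNg+IL4 were there at 7 genes (15.9%, against 6.35%) and untreated JUNB peaks at 2 (4.55%, against 3.21%). Neighbouring genes cannot be told apart by distance alone, since 31 of the 76 MYC peaks also lay within 5 kb of another protein-coding gene.

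**Figure D5:**
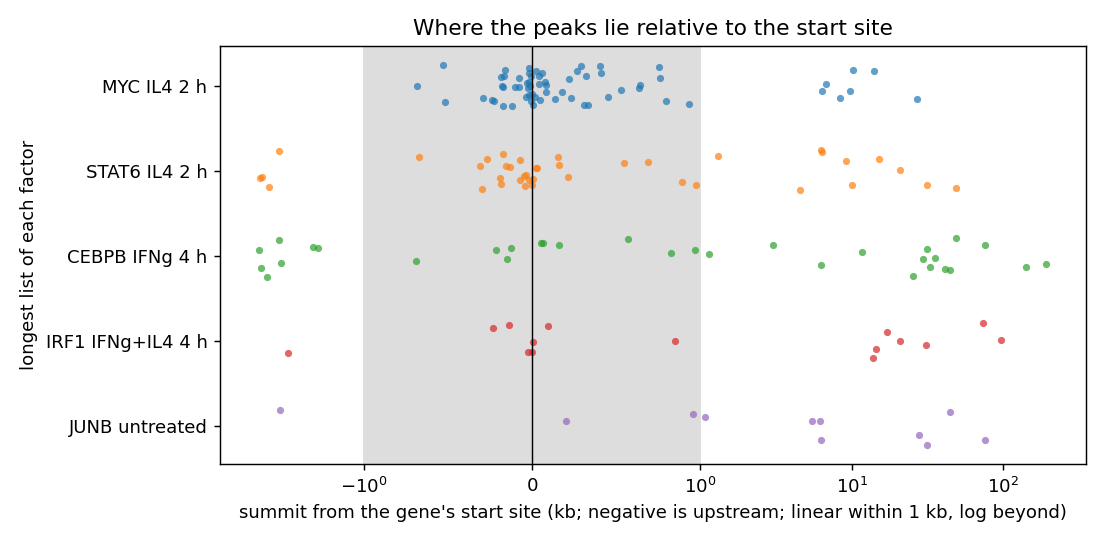
Distance of each summit from the annotated start of its gene, in kb (linear within 1 kb, shaded, and log beyond), for the longest list of each of the 5 factors at the 44 genes with a start in the table. Each point is 1 peak, spread vertically at random. The JUNB list is the untreated one, whose threshold was looser than that of the other lists. For MYC 56 of 63 points lie in the shaded band, and for CEBPB 10 of 32.

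All 10 genes with an E-box in the promoter window had a MYC peak within 1 kb of the start after 2 h of IL4. So did 28 of the 34 without one (82.4%). Over all protein-coding genes the shares were 55.2% with an E-box and 31.0% without. In untreated cells 4 of the 10 genes had such a peak, Eif3a and Eif4g1 shown above among them, and 6 of the 34 without an E-box. Over all genes these shares were 6.86% and 1.60%.

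STAT6 peaks were listed near partly different genes in the 2 treatments. With IL4 33 genes were near a peak, and 11 of them (33.3%, interval 17.96 to 51.8%) were not with IFNg+IL4, against 19.3% of all genes. The 11 were Eif1ad, Eif2b3, Eif2s3y, Eif4e2, Eif4g1 and 6 eIF3 genes (Eif3b, Eif3e, Eif3h, Eif3i, Eif3k and Eif3l). Another 5 genes, Eif1a, Eif2a, Eif2ak2, Eif3a and Eif3c, were near a STAT6 peak with IFNg+IL4 alone. For this direction the share of all genes was not computed. Of 51 STAT6 peaks with IL4, 29 were overlapped with IFNg+IL4 (56.9%, interval 42.2 to 70.7%), against 68.7% of the list. STAT6 peaks here were weak, with a median −log10 p of 12.6 against 17.9 over the list, and 21 of the 51 were in the weakest of 4 such classes. In that class 8 of 21 were overlapped (38.1%), against 36.1% of all.

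The strongest STAT6 peak with IL4 lay 9197 bp from the start of Eif2b2, past its end, with a −log10 p of 247, and the peak with IFNg+IL4 had 218. Eif2b2 encodes the beta subunit of eIF2B. Next was a peak inside Eif4g3, 48381 bp from its start, with 151 with IL4 and 90.6 with IFNg+IL4. The strongest peak at Eif4e3, a cap-binding family member, had 48.1 with IL4 and lay at a different place in the gene, with 32.8, with IFNg+IL4. These values rank peaks within a list and do not compare the libraries.

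IRF1 peaks numbered 0.321 per gene here with IFNg+IL4, against 0.294 over all genes. Eif4g3, a paralogue of Eif4g1, had the strongest, 14441 bp inside the gene, with a −log10 p of 162 with IFNg+IL4 (rank 67 of 8226) and 89.3 with IFNg (rank 60 of 4189). Its pileup was 51 fragments with IFNg and 99 with IFNg+IL4, in a library 2.08 times as deep. Eif3b had an IRF1 peak near its start in all 3 lists, with a −log10 p of 48.7 in untreated cells, 45.5 with IFNg and 98.3 with IFNg+IL4. Eif4e3 had 26.6 and 61.6 with IFNg and IFNg+IL4 and no untreated peak. The other gene with an untreated IRF1 peak was Eif4a1 (9.85, rank 231 of 244). All 8 IRF1 peaks with IFNg were overlapped with IFNg+IL4, as were 95.2% of the list.

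At Eif2ak2, whose start region is printed above, an IRF1 peak with a pileup of 23 was listed with IFNg+IL4 and none with IFNg or in untreated cells. When the IFNg+IL4 list was thinned to the depth of the IFNg library, 10 genes were still near an IRF1 peak, Eif2ak2 among them, against 17.0% of all genes. STAT6 was listed at the same start with IFNg+IL4 alone. MYC was listed there after 4 h of IL4 (pileup 16) and 2 h of IFNg+IL4 (pileup 8). These start-site peaks also lie within 5 kb of Sult6b1 and Gm26637.

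CEBPB was near 28 of the 56 genes with IFNg. Of these 17 (60.7%) had no untreated peak, against 61.2% of all genes, and 20 (71.4%, interval 51.3 to 86.8%) had none with IFNg+IL4, against 58.0%. The list with IFNg held 21499 peaks and that with IFNg+IL4 6278. Cut to the same length, the IFNg list was near 9 genes (16.1%, against 14.9% of all genes) and the IFNg+IL4 list near 8 (14.3%, against 14.8%), both at about the share of all genes. Eif4a1 had the strongest CEBPB peak in the IFNg list, with a −log10 p of 77.7 in untreated cells, 214 with IFNg and 87.7 with IFNg+IL4. Eif2b1, the alpha subunit gene of eIF2B, had 59.0, 161 and 40.0 in the same order, at a site upstream of its start that is also near Gtf2h3. Eif4ebp1, which encodes the translation repressor 4E-BP1, had 27.8, 156 and 92.4, the last being the strongest of these genes with IFNg+IL4. These genes had a CEBPB peak in every CEBPB list, and all 11 untreated peaks near the 56 genes were overlapped with IFNg, as were 99.9% of the list.

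The deposited list of untreated JUNB used a looser threshold than the others, and with their threshold 8 genes in place of 11 were near a peak (14.3%, against 10.8% of all genes). The strongest untreated JUNB peak was at Eif2d, 31272 bp inside the gene and near Rassf5, with a −log10 p of 15.0 in untreated cells, 30.9 with IFNg and 10.1 with IFNg+IL4. Eif4enif1, whose protein carries eIF4E into the nucleus, had 11.01, 31.2 and 11.9 at a site past its end and near Drg1. Eif4a1 and Eif4g3 tied for the next place with 10.55. The Eif4a1 peak had 11.96 with IFNg and 12.7 with IFNg+IL4 and also lay within 5 kb of the macrophage gene Cd68 and of Mpdu1, while Eif4g3 had 12.9 with IFNg and no peak with IFNg+IL4. Genes were ranked by the untreated list, the longest of JUNB as deposited with 9229 peaks. Only 5355 of these had a −log10 q of at least 2, against 7428 with IFNg, so at the shared threshold the IFNg list is longer. In the 2 treated lists Eif4e3, named after its values were seen, had the strongest JUNB peak of these genes, with a −log10 p of 82.6 with IFNg (rank 316 of 7428), 45.4 with IFNg+IL4 and 4.79 in untreated cells. The untreated peak had a −log10 q of 1.37, below the threshold of the other lists. Of the 11 genes with a JUNB peak with IFNg, Eif2b1, Eif3a, Eif4g3 and Eif5b had none with IFNg+IL4 (36.4%, against 29.7% of all genes). Of 13 untreated JUNB peaks 9 were overlapped with IFNg (69.2%, against 46.9% of the list), and of 14 with IFNg 8 with IFNg+IL4 (57.1%, against 62.0%). The first pair holds the list with the looser threshold. At a −log10 q of at least 5, 4 of 6 untreated peaks were overlapped (66.7%, against 77.5%). With the pair cut to the shorter length, 8 of 11 were (72.7%, against 54.1%).

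Overlapping peaks near the 56 genes merged into 141 sites. Of these 85 carried 1 factor, 39 carried 2, 13 carried 3, 3 carried 4 and 1 carried all 5. MYC was at 80 sites and STAT6 at 61, with 34 sites in common and 41 with MYC alone. Sites were not merged over all genes, so these counts have no background, and MYC had more lists than STAT6. The site with all 5 factors was inside Eif4a1 at chr11:69670942-69672095 and was called in 14 of the 16 lists, all but IRF1 with IFNg and JUNB with IFNg+IL4. It is the site of the strong MYC and CEBPB peaks given above. The next, inside Eif4ebp1 at chr8:27261014-27261627, was called in 12 lists of 4 factors, in all lists but those of IRF1 and untreated MYC. Its untreated JUNB peak had a −log10 q of 1.63, where the other lists held only values of at least 2. Untreated JUNB entered all these counts with its looser threshold. Eif4a1 was near a peak in 15 of the 16 lists, Eif1a in 13 and Eif4ebp1 in 12.

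Eif3j2, Eif4a3l1, Eif4e1b and Eif4ebp3 had no peak in any of the 16 lists (7.14%, against 38.7% of all genes). Eif3j2 and Eif4a3l1 are near copies of Eif3j1 and Eif4a3, where reads may not be assigned to one copy, and the handling of such reads is not given in the sources used here. Eif2ak3, Eif2b2 and Eif2d had peaks of other factors but none of MYC, and Eif2s3y had a STAT6 peak with IL4 alone.

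Other genes of protein synthesis were also near MYC peaks. All 20 cytosolic tRNA synthetase genes, whose enzymes charge tRNAs, were near one after 2 h of IL4, with 3 in untreated cells, 19 after 4 h of IL4, and 12 and 16 after 2 h and 4 h of IFNg+IL4. Of 12 elongation and termination genes the counts in the same order (untreated, IL4, IFNg+IL4) were 4, 10 and 10, 10 and 9. Eef1a1 and Eef2, the elongation factors that deliver tRNA and move the ribosome, were among the 4 in untreated cells. Of 18 partners and regulators of initiation, among them the kinase gene Mtor and the poly(A)-binding protein gene Pabpc1, the counts were 3, 14 and 13, 7 and 9. The background is the share of all genes given above for each list.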

How the data were processed

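The study mapped STAT6, IRF1, JUNB, CEBPB and MYC by ChIP-seq in 16 libraries, with 1 input library. Per the submitters' processing notes the tools were Bowtie2 2.2.6 for alignment and MACS2 2.1.0.20150731 for peaks, with mm10/GRCm38 as the build, with settings not given in the sources used here. Each library has its own peak list, so no replicates were pooled. The deposited fold is a ratio of signal at the summit to background. The authors' −log10 p and −log10 q belong to each peak, as deposited, and the deposited score is 10 times the −log10 q (−log10 p in untreated JUNB). The deposited summit offset gave each summit. Peaks on chromosomes 1 to 19, X and Y that overlapped none of 128 input peaks were used.

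Genes came from a RefSeq table of GRCm38.p6. Counts and overlaps were computed in Python 3.11.15 with pandas 2.3.3, numpy 2.4.6 and scipy 1.17.1, after a check on simulated data. Whole pileups were solved from fold and −log10 p (tolerance 0.003), and the steps of the expected background gave depth relative to the input. This assumes 1 input for every list. All pileups of the MYC and treated IRF1 lists came out whole. Read totals were not used here.

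The genes, roles, gene lists and comparisons were chosen with earlier results of these data known. Genes were named by rule: the 12 with the strongest MYC peak after 2 h of IL4, the 3 strongest in the longest list of each other factor, all with an untreated MYC peak or none in any list. Eif2ak2 and genes in short lists were named after their values were seen, as were the thinned and equal-length gene comparisons. Alternatives were other windows, thresholds, overlaps, list lengths and depths.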

Additional observations from a re-analysis of the deposited data

How the results depend on the processing

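Of 155 alternatives computed for the 16 counts of genes and 11 shares of overlapping peaks, 127 stayed within 1.5 times the count or within the counting interval of the share, and 28 did not. In what follows the share of all genes or peaks stands in brackets. Counting only summits within 1 kb of a start site, among 44 genes, gave 1 gene for IRF1 with IFNg (3.3%) and 7, or 15.9%, for IRF1 with IFNg+IL4 (6.35%). It gave 2 (3.21%), 2 (1.74%) and 1 (1.37%) for JUNB untreated, with IFNg and with IFNg+IL4, and 3 (2.85%), 9 (10.4%) and 2 (3.38%) for CEBPB in that order. A window of 20 kb gave 12 genes, or 21.4%, for JUNB with IFNg+IL4 (16.8%), and 18, or 32.1%, and 13, or 23.2%, for CEBPB untreated (20.7%) and with IFNg+IL4 (22.4%). A window of 2 kb gave 6, or 10.7%, and 5, or 8.93%, for these CEBPB lists (11.8% and 12.9%). A −log10 q of at least 5 left 6 genes, or 10.7%, for untreated JUNB (6.62%) and 5, or 8.93%, for untreated MYC (2.23%). Cut to the length of the shortest treated list of the factor, the count was 7, or 12.5%, for IRF1 with IFNg+IL4 (11.9%) and 9, or 16.1%, for CEBPB with IFNg (14.9%). It was 27, or 48.2%, for MYC after both 2 h and 4 h of IL4 (15.5% each), beside 23 and 27 for MYC with IFNg+IL4 at 2 h and 4 h (14.5% and 14.3%).

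With both lists of a pair cut to the shorter length, the share overlapped was 0.0% for untreated IRF1 in IFNg (2 peaks, against 27.0% of all peaks), 70.0% for CEBPB with IFNg in IFNg+IL4 (77.7%), and 66.7% for untreated MYC in 2 h of IL4 (67.9%). It was 73.5% for MYC after 2 h of IL4 in IFNg+IL4, against 65.2% of all peaks, and 76.3% at 4 h, against 65.0%. A reciprocal overlap of 50% gave 6.67% for untreated MYC in 2 h of IL4 (8.08%), and 15.8% and 33.3% for MYC with IL4 in IFNg+IL4 at 2 h and 4 h (7.74% and 15.3%). Thinning the list of 4 h of IL4 to the depth of IFNg+IL4 gave 60.3%, against 43.7% of all peaks. No paired analysis was possible because each group is 1 library and no test was made, and for the same reason no library could be left out.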
